A study of Mus musculus with 24 samples.

Results

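The 10 genes followed here encode insulin-like growth factor (IGF) ligands, their receptors and the proteins that bind them: Igf1, Igf2, Igf1r, Igf2r, Igfbp2, Igfbp3, Igfbp4, Igfbp5, Igfbp6 and Igfbp7. They were taken by symbol from 49568 genes in each of 2 expression tables of mouse liver, and all 10 had a row in both. The rule used their names and no measured value, and all 10 passed the filter on low values in both experiments.

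IGF1 and IGF2 are secreted peptides that signal growth and survival through IGF1R, a receptor tyrosine kinase at the cell surface. IGF2R, the cation-independent mannose 6-phosphate receptor, takes up IGF2 and carries lysosomal enzymes. The binding proteins are secreted, hold IGF in the extracellular space and set how much reaches the receptor, and IGFBP7 is a distant relative that binds IGF weakly and insulin as well. In the adult liver hepatocytes are the main source of circulating IGF1, whereas Igf2 is an imprinted gene that is largely silenced after birth in the mouse.

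The first table held 12 freshly sorted libraries from the healthy liver, 4 fractions from each of 3 littermates aged 12 weeks, the males A and E and the female F, all heterozygous for B6.129S4-Pdgfratm11(EGFP)Sor/J on a C57BL/6 background, so that green nuclei report Pdgfra and every animal, control fractions included, carries 1 altered Pdgfra allele. The fractions were ductal cells (DC, the bile duct epithelium, sorted as EpCAM+), PDGFRa+SCA1+ and PDGFRa+SCA1- mesenchymal cells, and PDGFRa-SCA1+ cells, all negative for CD11b, CD45 and CD31. The second table held 12 libraries of wild type C57BL/6 mice aged 8 to 12 weeks, 2 per group: DC at day 0, DC grown for 15 days into organoids in the growth factor rich expansion medium (EM), DC grown for 15 days as organoids on a transwell insert above mesenchyme, and SCA1+ mesenchymal cells (SCA1+Msc) at day 0, after 15 days alone, or after 15 days below the DC. These SCA1+Msc were sorted without PDGFRa, and they and the co-cultures were kept in a basal medium with WNT3a, so EM and co-culture differ in medium as well as in company. The paper's results also name fetal bovine serum in this medium, which the definition in its methods leaves out. The SCA1+Msc were first expanded in that medium before the DC were added, so they had been in culture for longer than the organoids by the end. The B27 and N2 supplements of the basal medium contain insulin.

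Values of the sorted fractions are the deposited ones, which are scaled for gene length and depth and lie within 0.722 to 1.39 times TPM, the share of transcripts scaled to 1e6 per library. Values of the transwell groups are TPM. Differences are on the scale of log2(value + 1), with a standard error (SE) and an adjusted p from limma's moderated test with Benjamini-Hochberg adjustment over all genes tested, called at 0.05. This scale understates the change of genes with low values. Replicates are separate animals for the sorted fractions. In the transwell assay the study counts its 2 replicates as biological, with the SCA1+Msc taken from 2 littermates and the DC from 2 others, although the labels do not tie a library to an animal.

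Between 19.3 and 28.1 M reads per library were assigned to genes, with a median of 22.6 M (M, 1e6 reads). Ductal genes (5 listed) summed to 54236 to 74150.0 in sorted DC and to 79.2 to 374 in all but 1 of the other sorted libraries, the exception being PDGFRa-SCA1+ cells of mouse E with 3706. Mesenchymal genes (5 listed) summed to 23498 to 46163 in the PDGFRa+ fractions, but only to 236 to 450.4 in PDGFRa-SCA1+ cells, in which the 4 endothelial genes summed to 1641 to 1758 and Pecam1, the gene of CD31, reached 796 ± 116 (SD, n = 3) although the cells were sorted as CD31-. PDGFRa-SCA1+ cells are therefore named by their gate only, and the endothelial transcripts stand beside each of the 3 comparisons with that fraction. The hepatocyte list (6 genes) summed to 17448 to 21918 TPM in SCA1+Msc at day 0, 4165 to 5295 TPM in DC at day 0 and 25.4 to 381 TPM in cultured SCA1+Msc. In SCA1+Msc at day 0 the mesenchymal list summed to 19952 to 20795 TPM, the ductal list to 1156 to 2417 TPM and the endothelial list to 149 to 163 TPM. The endothelial list summed to 89.4 to 151 TPM in SCA1+Msc alone and 118 to 171 TPM in co-culture.

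Igf1 was highest in the PDGFRa+ mesenchyme of the healthy liver. In the order of mice A, E and F it stood at 56.8, 37.2 and 134 in PDGFRa+SCA1+ cells, at 64.4, 91.5 and 60.7 in PDGFRa+SCA1- cells, at 19.8, 13.8 and 13.8 in DC, and at 7.58, 7.30 and 6.04 in PDGFRa-SCA1+ cells. Both PDGFRa+ fractions lay above every DC library and overlapped each other, and PDGFRa-SCA1+ cells lay below every DC library. Igf1 was higher than in DC by 2.01 (SE 0.43, adjusted p = 0.00475) in PDGFRa+SCA1+ cells and by 2.12 (SE 0.43, adjusted p = 0.00306) in PDGFRa+SCA1- cells, and the value in PDGFRa-SCA1+ cells was -1.06 (SE 0.43, adjusted p = 0.105). In these bulk libraries fewer cells of a type and less RNA per cell cannot be told apart. The 6 hepatocyte genes summed to 849.8 to 2429 in PDGFRa+ cells and 5799 to 6905 in DC but did not move as 1 group. Alb had means of 450.3 and 452 in PDGFRa+SCA1+ and PDGFRa+SCA1- cells and 5393 in DC, and Ttr of 80.3, 81.6 and 707, whereas Cyp2e1 had means of 892, 572 and 20.1 and Apoa1 of 148, 155 and 104. Their part in the Igf1 values was not tested.

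Igf2 was low throughout and lowest in DC. It stood at 0.977, 0.0326 and 0.0298 in DC of mice A, E and F, which rest on 37, 1 and 1 reads, at 4.88, 5.71 and 10.6 in PDGFRa+SCA1+ cells, at 25.3, 12.4 and 5.42 in PDGFRa+SCA1- cells, and at 4.65, 8.24 and 37.3 in PDGFRa-SCA1+ cells. The 3 non-ductal fractions overlapped each other, and none overlapped DC. The difference from DC was 2.59 (SE 0.77, adjusted p = 0.0279), 3.36 (SE 0.77, adjusted p = 0.00607) and 3.30 (SE 0.77, adjusted p = 0.00752) in that order of fractions, and the PDGFRa+SCA1+ call was lost without any 1 of its own libraries or without DC of mouse E or F, at an adjusted p of 0.0539 to 0.0998. Igf2 shares 98 exon bases with the antisense gene Igf2os and 3596 with Gm49394, not analysed here, and unstranded reads cannot be told apart there.

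Of the receptors, Igf2r was called in 2 of the 6 comparisons between fractions and Igf1r in 0. Igf1r was at 24.2, 26.6 and 16.5 in DC, 16.9, 15.2 and 13.7 in PDGFRa+SCA1+ cells, 9.65, 10.5 and 12.9 in PDGFRa+SCA1- cells, and 6.91, 14.8 and 13.1 in the PDGFRa-SCA1+ fraction (order A, E, F). DC had the highest mean, at 22.4, and its libraries overlapped those of PDGFRa+SCA1+ cells but not those of the other fractions. As TPM the mean was 20.6 in DC and 17.0 in PDGFRa+SCA1+ cells, whose library of mouse A was at 22.2. By limma Igf1r had an unadjusted p under 0.05 in 2 comparisons and the lowest adjusted p, 0.0974, for PDGFRa+SCA1- against DC. Igf2r was at 18.1, 18.6 and 10.5 in DC, 17.5, 17.2 and 25.5 in PDGFRa+SCA1+ cells, 19.4, 29.6 and 38.0 in PDGFRa+SCA1- cells, and 2.35, 8.14 and 8.65 in PDGFRa-SCA1+ cells. Each PDGFRa-SCA1+ library lay below all other libraries for this gene. Against the PDGFRa+SCA1- fraction it was lower by -2.12 (SE 0.49, adjusted p = 0.00861), against PDGFRa+SCA1+ by -1.64 (SE 0.49, adjusted p = 0.0359, and -1.14 with 0.115 without PDGFRa-SCA1+ cells of mouse A), and against DC the value was -1.29 (SE 0.49, adjusted p = 0.0830). The antisense gene Airn runs across Igf2r without sharing exon bases and reached 128 in the sorted fractions.

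Among the binding proteins, Igfbp3, which carries most IGF in serum, was at 4336, 3529 and 3181 in the PDGFRa+SCA1+ fraction (order A, E, F), at 391, 1219 and 598 in PDGFRa+SCA1- cells, at 402, 383 and 908 in PDGFRa-SCA1+ cells, and at 5.83, 3.04 and 11.1 in DC. All PDGFRa+SCA1+ libraries exceeded every other library, and all DC libraries lay below the rest. The difference from DC was 9.04 (SE 0.48, adjusted p = 8.9e-08) in PDGFRa+SCA1+ cells, 6.57 (SE 0.48, adjusted p = 1.2e-06) in PDGFRa+SCA1- cells and 6.23 (SE 0.48, adjusted p = 2.2e-06) in PDGFRa-SCA1+ cells.

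Igfbp4, an inhibitory binding protein that the protease PAPPA cleaves, was at 2331, 2322 and 2878 in PDGFRa+SCA1+ cells, 937, 1191 and 1297 in PDGFRa+SCA1- cells, 1725, 1480.2 and 1565 in PDGFRa-SCA1+ cells and 33.0, 21.8 and 29.5 in DC. Its 4 groups did not overlap in the deposited values. As TPM, PDGFRa-SCA1+ cells of mouse F, at 1157, lay below PDGFRa+SCA1- cells of mouse F, at 1297, so those fractions overlapped. Igfbp4 was higher than in DC by 6.44 (SE 0.21, adjusted p = 3.7e-09), 5.30 (SE 0.21, adjusted p = 2.0e-08) and 5.79 (SE 0.21, adjusted p = 2.1e-08) in PDGFRa+SCA1+, PDGFRa+SCA1- and PDGFRa-SCA1+ cells.

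Igfbp6, the binding protein that prefers IGF2, was highest in PDGFRa+SCA1- cells. It stood there at 1250.0, 1414 and 803, at 313, 383 and 102 in PDGFRa+SCA1+ cells, at 131, 0.544 and 11.1 in PDGFRa-SCA1+ cells and at 3.68, 2.72 and 1.68 in DC. Mouse A alone gave PDGFRa-SCA1+ cells a value above 100, and in that library the mesothelial genes (3 listed) summed to 64.2, against 0.0774 and 0.0222 in mice E and F. Smooth muscle genes (3 listed) were also highest in PDGFRa+SCA1- cells, with sums of 1029, 1583 and 2341 in mice A, E and F. They summed to 121 to 159 in PDGFRa+SCA1+ cells, 27.8 to 82.0 in PDGFRa-SCA1+ cells and 9.26 to 12.1 in DC. Among PDGFRa+SCA1- libraries mouse F had the highest smooth muscle sum and the lowest Igfbp6. The mesothelial list summed to 40.2 to 133 in PDGFRa+SCA1- cells, 7.08 to 20.2 in PDGFRa+SCA1+ cells and 29.7 to 85.5 in DC. Its gene Wt1 was at 51.9 ± 13.6 (SD, n = 3) in PDGFRa+SCA1- cells against 11.6 ± 4.72 in PDGFRa+SCA1+ cells. The part of mesothelial and smooth muscle RNA in the Igfbp6 values was not tested. The difference of PDGFRa+SCA1- from PDGFRa-SCA1+ cells, coded as the latter minus the former, was -6.38 (SE 1.16, adjusted p = 0.00184), and the libraries of the PDGFRa+ fractions did not overlap although their difference was not called (-2.28, SE 1.16, adjusted p = 0.487).

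Igfbp5, an extracellular matrix binding form, was at 48.7, 52.1 and 71.1 in PDGFRa+SCA1+ cells, 69.9, 62.8 and 94.0 in PDGFRa+SCA1- cells, 55.9, 7.08 and 7.61 in PDGFRa-SCA1+ cells and 4.62, 0.726 and 1.98 in DC. Mouse A again had the highest value among PDGFRa-SCA1+ cells, and without it the difference of that fraction from DC went from 2.37 (SE 0.68, adjusted p = 0.0252) to 1.44 (adjusted p = 0.0700). Igfbp2, the next most abundant IGF carrier in serum, was at 5.54, 11.6 and 7.16 in PDGFRa+SCA1+ cells, 41.8, 8.67 and 89.0 in PDGFRa+SCA1- cells, 16.4, 7.87 and 0.0923 in PDGFRa-SCA1+ cells and 0, 1.11 and 1.20 in DC. Its SE, 1.01, was exceeded only by the 1.16 of Igfbp6 among the 10 genes in this fit, and of the 6 comparisons it was called for PDGFRa+SCA1- against DC (4.32, SE 1.01, adjusted p = 0.00699).

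Igfbp7 was the most abundant of the 10 genes in every library of both tables. It stood at 11345, 11690.2 and 22139 in PDGFRa+SCA1+ cells, 11611, 11643 and 13816 in PDGFRa+SCA1- cells, 9826, 9667 and 5237 in PDGFRa-SCA1+ cells and 1984, 1829 and 1546 in DC. The DC libraries lay below all others, and the difference from DC was 3.01 (SE 0.29, adjusted p = 1.1e-05), 2.79 (SE 0.29, adjusted p = 1.9e-05) and 2.16 (SE 0.29, adjusted p = 1.6e-04) respectively. Igfbp7 shares 85 exon bases with Polr2b on the other strand, which reached 65.3 in these fractions.

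**Figure D1:**
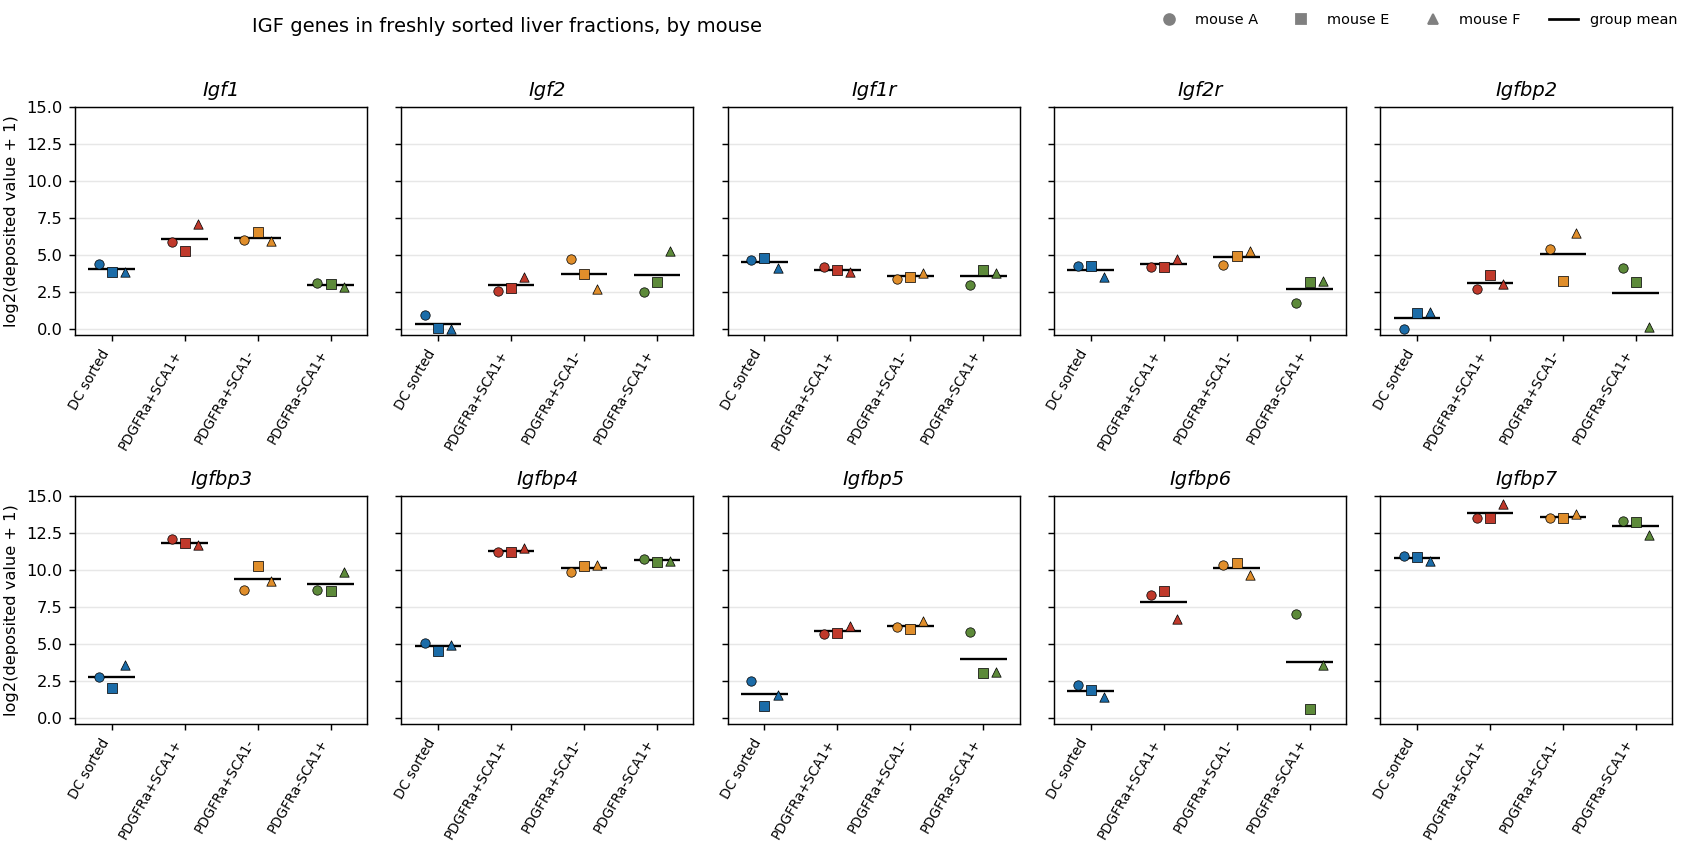
Values of the 10 IGF genes in the sorted fractions of the healthy liver, as log2(deposited value + 1) on the vertical axis, with a panel per gene; each point is a library, its shape gives the mouse and the bar the mean of 3. Igfbp3 sat between 3181 and 4336 in PDGFRa+SCA1+ cells, above all other libraries, while Igf1r sat between 16.5 and 26.6 in DC and between 6.91 and 16.9 in the other fractions.

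Counted over the list, 7 of the 10 genes were higher in PDGFRa+SCA1+ cells than in DC, beside 9.85% of the 17028 genes tested, and 0 were lower, beside 14.0%. In PDGFRa+SCA1- cells 8 were higher, beside 9.98%, and 0 lower, beside 18.9%, and in PDGFRa-SCA1+ cells 5 were higher, beside 11.5%, and 0 lower, beside 11.3%. The median difference of the 10 genes was 2.80, 3.84 and 2.03 in that order, against -0.28, -0.47 and -0.04 over all genes tested. Quantile normalization moved the medians over all genes to -0.09, -0.19 and -0.10 and turned no called direction. These 3 comparisons share the DC libraries.

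Between the PDGFRa+ fractions, 2 of the 10 genes were higher in PDGFRa+SCA1+ cells, Igfbp3 by 2.47 (SE 0.48, adjusted p = 0.0473) and Igfbp4 by 1.14 (SE 0.21, adjusted p = 0.0311), where 0.435% of all genes rose and 0.153% fell. When the mouse was added as a block, each mouse having given every fraction, both missed the threshold, at an adjusted p of 0.0787 and 0.0665. The Igfbp3 call held in 4 of 20 alternatives and the Igfbp4 call in 9 of 20. The median over the list was -0.25, against 0.15 over all genes. PDGFRa-SCA1+ cells had 5 of the 10 genes lower than PDGFRa+SCA1+ cells, beside 7.86% of all genes lower and 10.9% higher, namely Igf1 (-3.07), Igf2r, Igfbp3 (-2.81), Igfbp4 (-0.65) and Igfbp6 (-4.10, SE 1.16, adjusted p = 0.0272). The Igfbp6 libraries of the 2 fractions overlapped, and without PDGFRa-SCA1+ cells of mouse E its difference was -2.54 (adjusted p = 0.0705). The Igfbp4 call there held in 8 of 20 alternatives. It was lost with the mouse block (adjusted p = 0.0530) and with quantile normalization (-0.43, adjusted p = 0.183), among others. Against PDGFRa+SCA1- cells 4 were lower, Igf1 (-3.18), Igf2r, Igfbp5 (-2.25, SE 0.68, adjusted p = 0.0348) and Igfbp6, beside 7.24% lower and 14.2% higher. The Igfbp5 call was lost in 12 of 20 alternatives, among them without PDGFRa-SCA1+ cells of mouse E (-1.77, adjusted p = 0.122) or mouse F (-1.82, adjusted p = 0.123). The list medians were -1.25 and -1.38, against 0.25 and 0.41 over all genes.

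The rest of the pathway was read from a list of 34 genes, of which 26 passed the filter in each experiment. Against DC, 9 of the 26 were higher and 2 lower in PDGFRa+SCA1+ cells, beside 9.85% and 14.0% of all genes. In PDGFRa+SCA1- cells 9 were higher and 3 lower, beside 9.98% and 18.9%, and in PDGFRa-SCA1+ cells 5 were higher and 2 lower, beside 11.5% and 11.3%. Htra1, a secreted serine protease that can cleave binding proteins, led each of the 3 comparisons, at 831 ± 72.7, 589 ± 70.1 and 127 ± 9.27 (SD, n = 3) in those fractions and 4.49 ± 4.38 in DC. Pappa, the metalloprotease that cleaves IGFBP4, was at 40.1 ± 14.0 and 32.2 ± 13.4 in the PDGFRa+ fractions, 1.27 ± 1.20 in DC and 0.0103 ± 0.0178 in PDGFRa-SCA1+ cells. Stc1, whose product inhibits PAPPA, was highest in PDGFRa-SCA1+ cells at 168 ± 67.9 and had means between 8.16 and 9.88 elsewhere. Between the PDGFRa+ fractions limma called 0 of the 26, with an unadjusted p under 0.05 for 4. From PDGFRa+SCA1+ to PDGFRa-SCA1+ cells 2 were higher and 7 lower, beside 10.9% and 7.86% of all genes, with Pappa (-5.29), Stc1 (4.84) and the insulin receptor substrate Irs2 (-4.22) ahead, and from PDGFRa+SCA1- cells 4 were higher and 8 lower, beside 14.2% and 7.24%, with Stc1 (5.70) and Pappa (-4.97) ahead.

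SCA1+Msc sorted for the transwell assay also stood above DC at day 0. Of the 10 genes 8 were higher, beside 21.4% of the 18136 genes tested, and 0 lower, beside 24.7%, and the list median was 3.09 against -0.07 over all genes. Igf1 was at 64.7 and 61.3 TPM in SCA1+Msc replicates 1 and 2 and at 9.35 and 10.9 TPM in DC, a difference of 2.53 (SE 0.26, adjusted p = 4.5e-05). Igfbp3 was at 1743 and 1831 TPM against 10.8 and 10.4 TPM (7.27, SE 0.23, adjusted p = 3.9e-08), and Igfbp6 at 353 and 931 TPM against 0.522 and 2.87 TPM (7.89, SE 0.60, adjusted p = 6.0e-06). Igf1r, at 8.92 and 8.56 TPM against 8.38 and 7.43 TPM, and Igf2r, at 12.3 and 18.2 TPM against 14.3 and 8.43 TPM, were not called (0.13, SE 0.27, and 0.41, SE 0.29). Hepatocyte genes were also highest in SCA1+Msc at day 0, as given above, and their part in the Igf1 and Igfbp2 values of that group was not tested.

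After culture Igfbp4 was higher than at day 0 in both cell kinds. So was Igfbp7, though in SCA1+Msc its rise was close to the shift of the median gene. Its calls there were lost in some alternatives. In SCA1+Msc the neighbours Igfbp2 and Igfbp5 had the largest differences of the 10 genes. They lie on chromosome 1 of GRCm38, Igfbp2 at chr1:72824503-72852474 on the plus strand and Igfbp5 at chr1:72857932-72874884 on the minus strand, so that their 3′ ends face each other across 5.46 kb with no gene between them. Igfbp4, which rose in both cell kinds, lies at chr11:99041244-99054392 on the plus strand. The promoters of these 3 genes are shown because Igfbp2 and Igfbp5 had those differences in SCA1+Msc and Igfbp4 rose in all 4 cultures. They are taken from RefSeq on GRCm38.p6 and run from 250 bases before to 50 bases after the start of transcription, 5′ to 3′ on the gene's strand, at chr1:72824230-72824529 (plus) for Igfbp2, chr1:72874816-72875115 (minus) for Igfbp5 and chr11:99040994-99041293 (plus) for Igfbp4. Capitals mark matches, on either strand, to the GC box GGGCGG, the E-box CACGTG, the TATA box TATAAA, the forkhead motif GTAAACA or the CSL motif GTGGGAA.
Igfbp2: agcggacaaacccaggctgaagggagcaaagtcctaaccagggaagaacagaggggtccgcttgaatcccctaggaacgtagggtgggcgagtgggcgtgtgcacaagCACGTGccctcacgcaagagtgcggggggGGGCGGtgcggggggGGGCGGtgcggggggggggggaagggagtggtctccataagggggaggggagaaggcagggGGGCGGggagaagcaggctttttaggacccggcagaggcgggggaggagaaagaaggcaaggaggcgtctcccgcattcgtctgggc
Igfbp5: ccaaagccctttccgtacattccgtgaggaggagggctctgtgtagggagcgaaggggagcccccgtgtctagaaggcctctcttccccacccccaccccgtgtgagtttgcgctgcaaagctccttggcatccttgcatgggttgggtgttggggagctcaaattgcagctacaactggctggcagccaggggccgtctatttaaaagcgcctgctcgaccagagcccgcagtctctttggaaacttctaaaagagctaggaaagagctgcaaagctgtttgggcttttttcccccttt
Igfbp4: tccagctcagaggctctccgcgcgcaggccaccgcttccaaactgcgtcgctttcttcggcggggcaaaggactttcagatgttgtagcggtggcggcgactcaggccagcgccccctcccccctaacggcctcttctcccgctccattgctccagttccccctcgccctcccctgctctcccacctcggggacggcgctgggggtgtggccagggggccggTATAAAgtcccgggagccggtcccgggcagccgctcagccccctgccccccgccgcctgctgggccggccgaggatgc

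RefSeq promoters were found for all 10 genes, 14 in total because Igf2 has 4 and Igfbp2 2. The first Igfbp2 promoter held 3 GC boxes and 1 E-box, the Igfbp4 promoter 1 TATA box, and the Igfbp5 promoter no match to the 5 motifs. Of all 32841 promoters of this length 35.7% held the GC box, 7.15% the E-box, 13.6% the TATA box, 3.65% the forkhead motif and 6.38% the CSL motif. Of the 14 promoters 6 held the GC box, 2 the E-box, 2 the TATA box, 0 the forkhead motif and 1 the CSL motif. A match is a run of letters and not a shown binding site.

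Igfbp2 rose in cultured mesenchyme and was all but lost from organoids. In SCA1+Msc it went from 92.5 and 51.2 TPM at day 0 to 1689.6 and 2227 TPM alone and to 1550.4 and 2326 TPM in co-culture, whereas in DC it went from 7.68 and 6.84 TPM to 0.0759 and 0 TPM in EM and to 0.121 and 0 TPM in co-culture. The organoid values rest on 1, 0, 2 and 0 reads, under the 3 reads that a count of 0 allows, so no fold is given against them. All cultured SCA1+Msc libraries lay above all others, and all organoid libraries below all DC libraries. The change was 4.80 (SE 0.29, adjusted p = 2.2e-06) in SCA1+Msc alone and 4.77 (SE 0.29, adjusted p = 2.5e-06) in co-culture. On the same scale, which for so few reads depends on the added 1, it was -2.99 (SE 0.29, adjusted p = 3.4e-05) in EM and -2.96 (SE 0.29, adjusted p = 3.9e-05) in co-cultured organoids. Other lists also moved in SCA1+Msc: smooth muscle genes summed to 501 to 707 TPM at day 0, 2884 to 3142 TPM alone and 3212 to 3485 TPM in co-culture, with Acta2 going from a mean of 515 to 2950.1 and 3285 TPM and Myh11 from 59.3 to 24.0 and 24.5 TPM, and erythroid genes summed to 6388 to 8038 TPM at day 0 and to 0.920 to 1.81 TPM in culture. Their part in the changes of the 10 genes was not tested.

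Igfbp5 went the other way in the mesenchyme. It fell from 34.3 and 92.4 TPM at day 0 to 2.19 and 0.158 TPM in SCA1+Msc alone and to 1.31 and 0 TPM in co-culture, on 101, 7, 50 and 0 reads. No cultured library overlapped day 0. The change was -4.90 (SE 0.67, adjusted p = 3.0e-04) alone and -5.24 (SE 0.67, adjusted p = 2.1e-04) in co-culture. In DC it was at 2.11 and 0.532 TPM at day 0, 5.88 and 7.59 TPM in EM and 0.112 and 0.817 TPM in co-culture, and co-cultured organoids were lower than those in EM by -2.44 (SE 0.67, adjusted p = 0.0424), a call that 12 of 20 alternatives took away, with an adjusted p of up to 0.242.

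Igfbp4 rose in all 4 cultures. In DC it went from 20.9 and 32.9 TPM to 354 and 325 TPM in EM and 359 and 388 TPM in co-culture, changes of 3.64 (SE 0.17, adjusted p = 5.0e-07) and 3.78 (SE 0.17, adjusted p = 5.2e-07). In SCA1+Msc it went from 1553 and 1437 TPM to 6316 and 6629.6 TPM alone and 6849.7 and 7665 TPM in co-culture, changes of 2.11 (SE 0.17, adjusted p = 1.1e-05) and 2.28 (SE 0.17, adjusted p = 7.8e-06). Even so the organoids stayed below the freshly sorted mesenchyme in each library.

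Igfbp3 was higher in co-cultured organoids than in those in EM. It was at 10.8 and 10.4 TPM in DC at day 0, 33.4 and 17.5 TPM in EM and 54.1 and 61.3 TPM in co-culture, with no overlap between the 3 groups. Co-cultured organoids exceeded EM organoids by 1.22 (SE 0.23, adjusted p = 0.00733), and without co-cultured replicate 2 by 1.13 (adjusted p = 0.0645), while a fit of these groups alone gave an adjusted p of 0.197. The mesenchymal gene list summed to 1.08 to 6.21 TPM in EM organoids and 2.20 to 14.8 TPM in co-cultured ones, where mesothelial genes summed to 3879 to 4502 TPM against 297 to 326 TPM in EM. That sum was almost all Msln, at 4189 ± 439.6 TPM in co-culture and 311 ± 21.0 TPM in EM (SD, n = 2), while Wt1 was at 0 in co-culture and 0.0226 ± 0.0320 TPM in EM, and Upk3b was at 1.59 ± 0.925 TPM in co-culture. The part of either list in the Igfbp3 value was not tested. In SCA1+Msc Igfbp3 was at 1743 and 1831 TPM at day 0, 2781 and 2711 TPM alone and 1838 and 2007 TPM in co-culture, and limma called 0 of these 3 contrasts, with an unadjusted p under 0.05 in 2 and the lowest adjusted p, 0.0507, for alone against day 0.

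Igfbp7 and Igfbp6 moved by less or less surely. Igfbp7 rose in DC from 2069 and 1776 TPM to 5351 and 4829 TPM in EM (1.41, SE 0.10, adjusted p = 5.3e-06) and 4074 and 4648 TPM in co-culture (1.18, SE 0.10, adjusted p = 1.6e-05). In SCA1+Msc it went from 15262 and 13164 TPM to 18555 and 17802 TPM alone (0.36, SE 0.10, adjusted p = 0.0160) and 18172 and 17307 TPM in co-culture (0.32, SE 0.10, adjusted p = 0.0263), close to the shift of the median gene, 0.19 and 0.17. Igfbp6 fell from 353 and 931 TPM in SCA1+Msc at day 0 to 181 and 153 TPM alone (-1.78, SE 0.60, adjusted p = 0.0351) and 110.5 and 154 TPM in co-culture (-2.13, SE 0.60, adjusted p = 0.0166). Without day 0 replicate 2 neither Igfbp6 nor Igfbp7 passed the threshold in either culture, with adjusted p between 0.131 and 0.247, and the same held without replicate 1 of the cultured group, at 0.0868 to 0.127.

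Igf1 was lower in organoids than in DC at day 0, and its change in the cultured mesenchyme was not called. It went from 9.35 and 10.9 TPM in DC to 0.269 and 0.711 TPM in EM (-2.91, SE 0.26, adjusted p = 2.2e-05) and 1.43 and 1.06 TPM in co-culture (-2.31, SE 0.26, adjusted p = 1.0e-04). In SCA1+Msc it was at 64.7 and 61.3 TPM at day 0, 120.2 and 73.9 TPM alone and 77.0 and 81.3 TPM in co-culture, changes of 0.57 (SE 0.26, adjusted p = 0.107) and 0.33 (SE 0.26, adjusted p = 0.355) that were not called. Over the same days the hepatocyte list fell to 1339 to 1404 TPM in EM organoids, 153 to 347 TPM in co-cultured organoids and 25.4 to 381 TPM in SCA1+Msc. Its part in the Igf1 values of either cell kind was not tested.

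Igf2 and the receptors had few calls. Igf2 was at 7.72 and 13.8 TPM in SCA1+Msc at day 0, 6.92 and 29.2 TPM alone and 7.01 and 33.8 TPM in co-culture, where replicate 2 lay far above replicate 1 in both cultures, and at 0 to 0.766 TPM in the 6 ductal libraries. Igf1r was at 8.38 and 7.43 TPM in DC, 17.2 and 12.5 TPM in EM (0.82, SE 0.27, adjusted p = 0.0349) and 11.7 and 9.52 TPM in co-culture, and between 6.66 and 11.0 TPM in SCA1+Msc. The EM call was lost under quantile normalization (0.40, adjusted p = 0.290) and without EM replicate 1 (0.60, adjusted p = 0.203) or either DC library (adjusted p = 0.0776 and 0.133). Igf2r was at 14.3 and 8.43 TPM in DC, 20.4 and 16.8 TPM in EM, 17.0 and 16.3 TPM in co-culture and between 10.2 and 18.2 TPM in SCA1+Msc, with no call in culture.

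**Figure D2:**
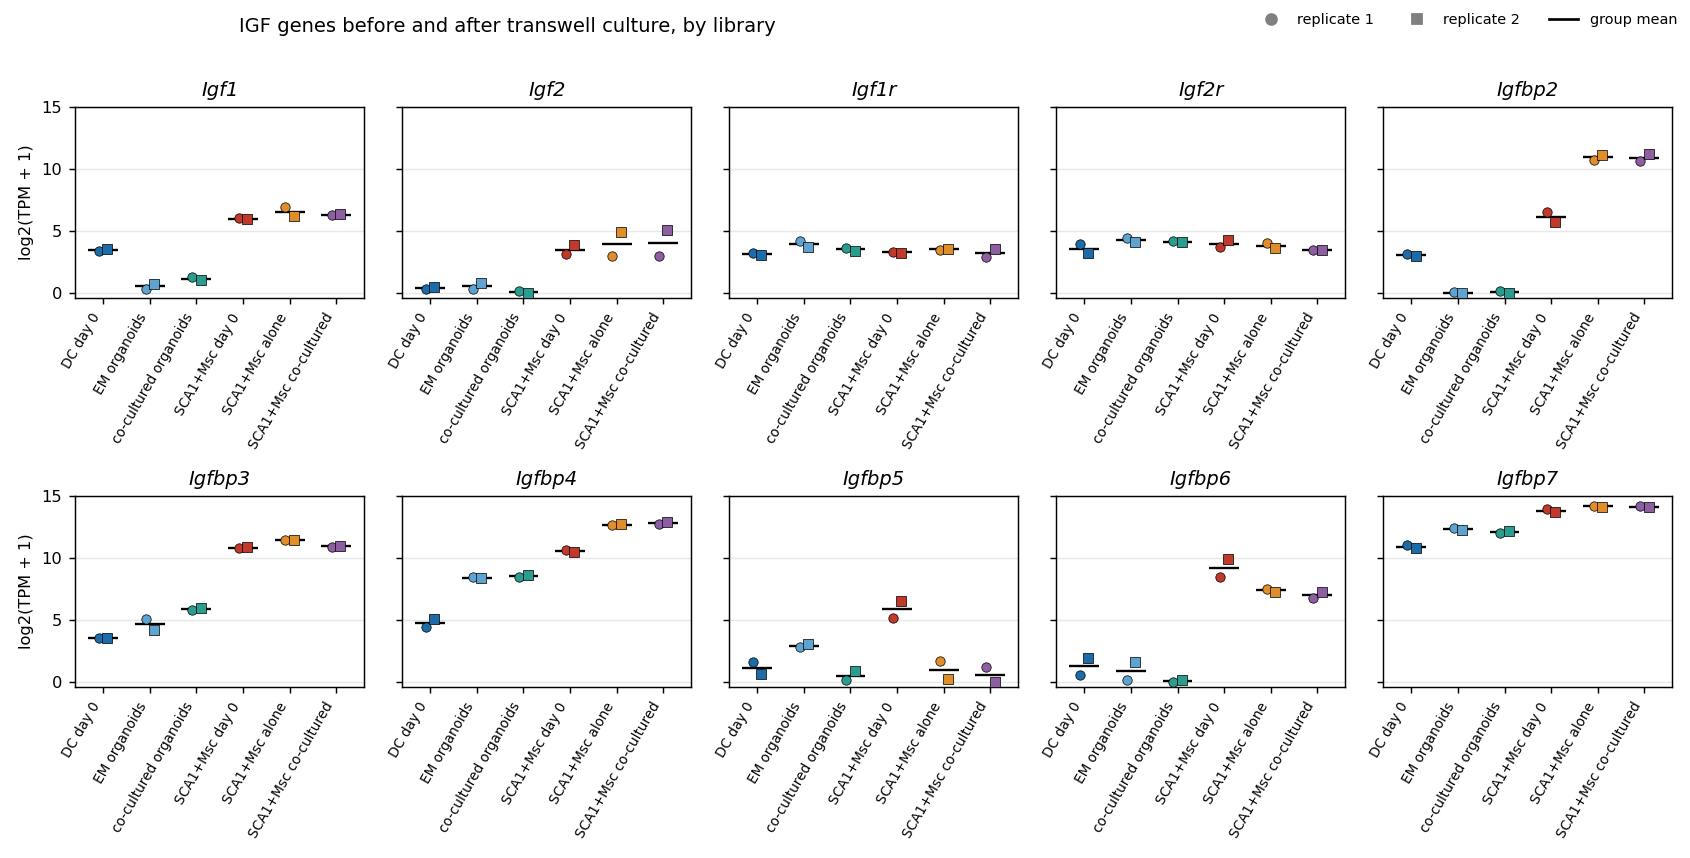
Values of the 10 IGF genes in the transwell experiment, as log2(TPM + 1) on the vertical axis, with a panel per gene; each point is a library, its shape gives the replicate number and the bar the mean of 2. Igfbp2 sat between 1550.4 and 2326 TPM in cultured SCA1+Msc and between 0 and 0.121 TPM in organoids, and Igfbp5 fell to at most 2.19 TPM in cultured SCA1+Msc.

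By count, EM organoids had 4 of the 10 genes higher than DC at day 0 (Igf1r, Igfbp3, Igfbp4 and Igfbp7), beside 27.1% of all genes, and 2 lower (Igf1 and Igfbp2), beside 17.2%. Co-cultured organoids had 3 higher (Igfbp3, Igfbp4 and Igfbp7), beside 23.2%, and the same 2 lower, beside 19.1%. Between the organoids 1 was higher in co-culture (Igfbp3), beside 5.73%, and 1 lower (Igfbp5), beside 7.21%. SCA1+Msc alone had 3 higher than at day 0 (Igfbp2, Igfbp4 and Igfbp7), beside 27.4%, and 2 lower (Igfbp5 and Igfbp6), beside 17.5%, and in co-culture the same 3 higher, beside 26.0%, and the same 2 lower, beside 17.3%. The list medians were 0.76, 0.04, -0.19, 0.40 and 0.21 in that order, against 0.12, 0.00, -0.13, 0.19 and 0.17 over all genes, so the counts of the list lay near or a little above those of all genes. Comparisons with the same day 0 group share its libraries.

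SCA1+Msc with and without DC above them were set side by side to read the effect of DC on these genes. Of the 10 genes 0 were called between co-cultured SCA1+Msc and SCA1+Msc alone, beside 0.127% of all genes, by limma in the main fit and in all 20 alternatives. Differences ran from -0.52 (Igfbp3, SE 0.23, adjusted p = 0.716) to 0.16 (Igfbp4, SE 0.17, adjusted p = 0.959). At an unadjusted p under 0.05 the count was 1 of 10, Igfbp3.

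At the end of culture, co-cultured SCA1+Msc had 7 of the 10 genes above the organoids that shared their wells, beside 17.7% of all genes higher and 36.7% called in either direction, and the other 3 were not called, with a list median of 4.12 against 0.00. Igf1 differed by 5.16 (SE 0.26, adjusted p = 3.2e-07), Igf2 by 3.96 (SE 0.74, adjusted p = 0.00208) and Igfbp6 by 6.96 (SE 0.60, adjusted p = 1.1e-05). The organoid libraries held 0 and 1 read of Igfbp6, at 0 and 0.119 TPM, so that value depends on the added 1 and is no bound. Igfbp5, apart at day 0 by 4.72 (SE 0.67, adjusted p = 3.2e-04), was no longer called, at 0.10 (SE 0.67, adjusted p = 0.969).

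The change in co-cultured SCA1+Msc was also set against the change in co-cultured organoids in 1 interaction term. It was positive for 2 of the 10 genes, Igfbp2 by 7.73 (SE 0.41, adjusted p = 4.7e-06) and Igf1 by 2.63 (SE 0.37, adjusted p = 9.0e-04), beside 14.5%, and negative for 4, beside 13.8%. These were Igfbp5 at -4.62 (SE 0.95, adjusted p = 0.00614), Igfbp3 at -2.23 (SE 0.32, adjusted p = 0.00102), Igfbp4 at -1.50 (SE 0.24, adjusted p = 0.00162) and Igfbp7 at -0.86 (SE 0.14, adjusted p = 0.00205). The Igfbp2 term depends on the added 1, as co-cultured organoids held 2 and 0 reads of that gene. The list median was -0.89, against 0.14 over all genes. The SCA1+Msc had also been expanded before the DC were added, so cell kind and time in culture cannot be told apart in this term.

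**Figure D3:**
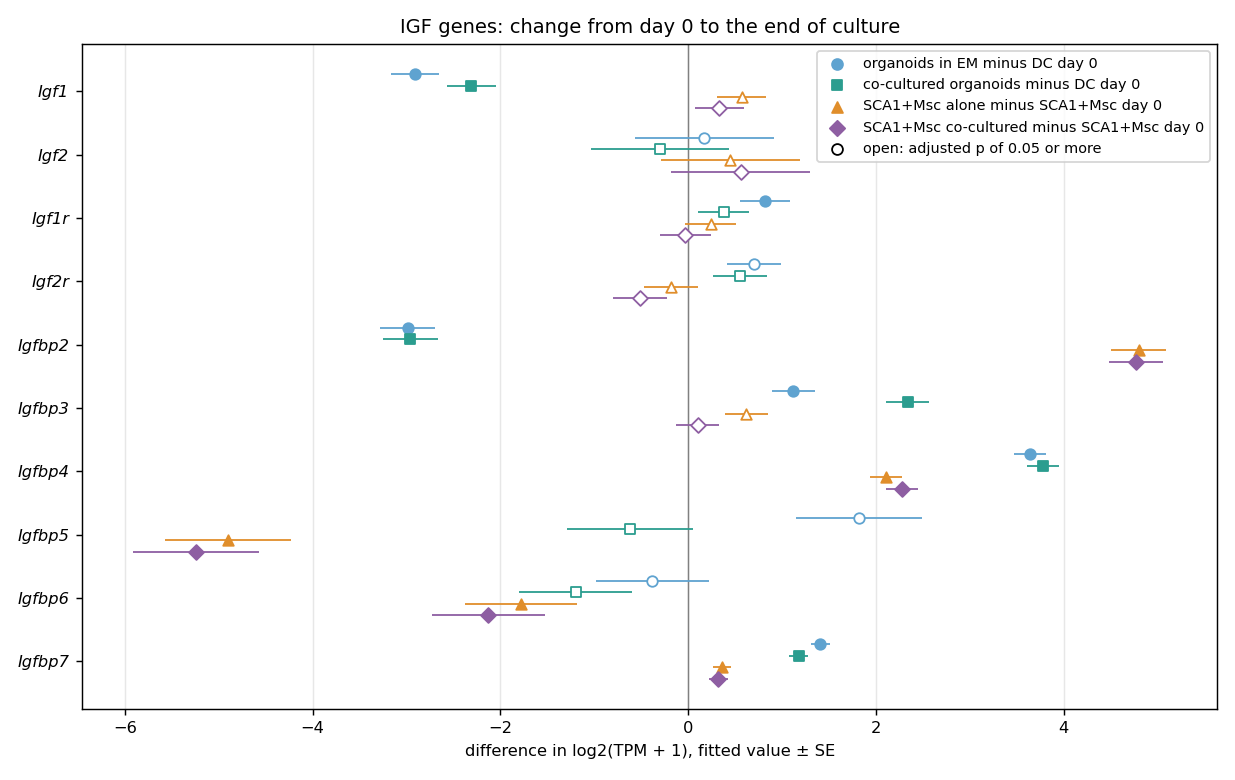
Change of the 10 IGF genes from day 0 to the end of culture, as the fitted difference in log2(TPM + 1) with its SE; colours and shapes give the 4 cultures, filled points have an adjusted p under 0.05. Igfbp2 changed by 4.80 and 4.77 in SCA1+Msc and by -2.99 and -2.96 in organoids, and Igfbp5 by -4.90 and -5.24 in SCA1+Msc. The organoid changes of Igfbp2 depend on the added 1.

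The make-up of binding protein RNA differed between the groups. As a share of the summed level of the 6 genes, Igfbp7 made up 97.7% ± 0.642 (SD, n = 3) in sorted DC, 68.2% ± 8.62 in PDGFRa+SCA1+ cells, 79.6% ± 4.14 in PDGFRa+SCA1- cells and 77.4% ± 8.50 in PDGFRa-SCA1+ cells. The remainder was mostly Igfbp3 (18.1% ± 6.32) and Igfbp4 (11.9% ± 1.54) in PDGFRa+SCA1+ cells, whereas in PDGFRa+SCA1- cells Igfbp6 held 7.55% ± 2.38, about as much as Igfbp4 with 7.33% ± 0.673. The deposited values divide genes of the same library by different totals, which adds to these spreads. As TPM the Igfbp7 shares were 97.9% ± 0.238, 69.1% ± 5.02, 80.2% ± 2.27 and 78.4% ± 4.48 in the same order of fractions. In the transwell groups, with n = 2, the sum rose from 18272 ± 1083 TPM in SCA1+Msc at day 0 to 29524 ± 1.95 TPM alone and 28991 ± 664 TPM in co-culture, as the Igfbp4 share went from 8.18% ± 0.0338 to 21.9% ± 0.752 and 25.0% ± 1.42 and the Igfbp2 share from 0.389% ± 0.137 to 6.63% ± 1.29 and 6.67% ± 1.74. The mesenchymal list summed to 19952 to 20795 TPM in SCA1+Msc at day 0. It summed to 30638 to 33025 TPM alone and 28535 to 29600.1 TPM in co-culture. The part of this rise, and of the fall of the hepatocyte and erythroid lists, in the sum of the 6 genes was not tested. In DC the sum rose from 1970.3 ± 199 TPM to 5463 ± 398 TPM in EM and 4793 ± 432 TPM in co-culture, and Igfbp7 kept 93.2% ± 0.0453 and 91.0% ± 0.275 of it.

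**Figure D4:**
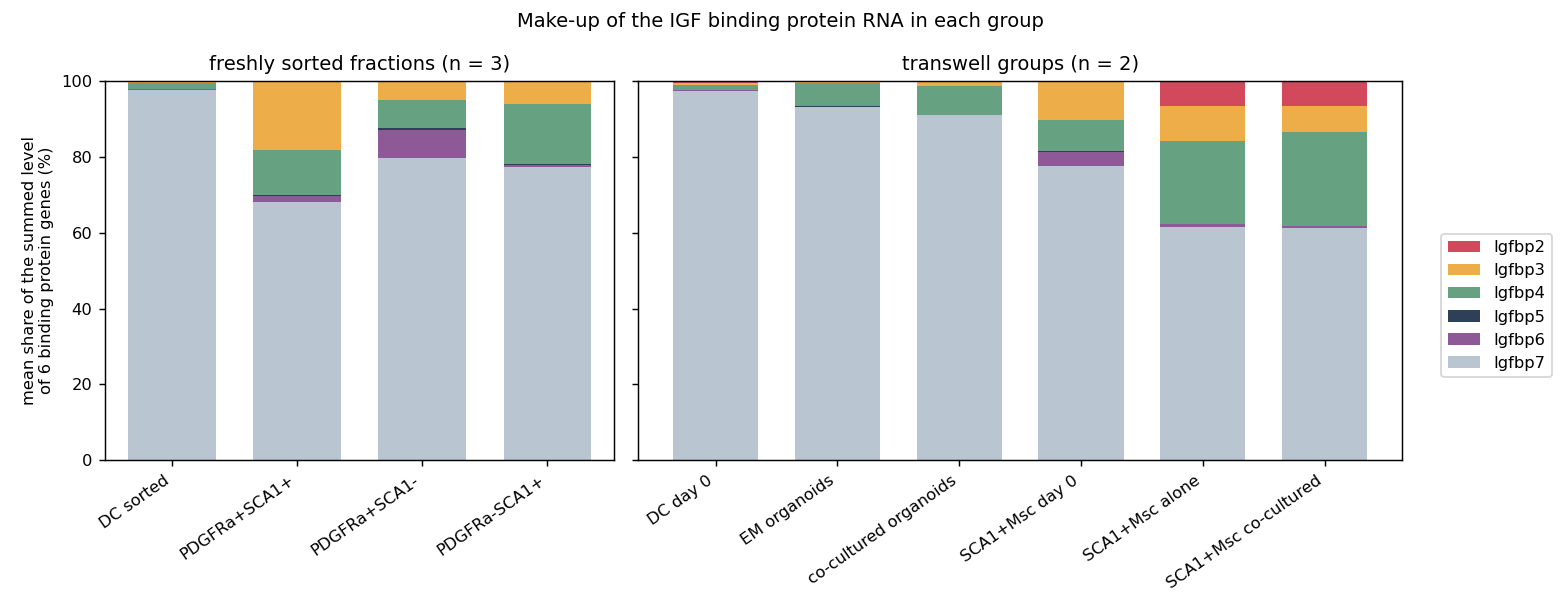
Mean share of each of 6 binding protein genes in their summed level, in percent, as stacked bars for the sorted fractions (deposited values, n = 3) and the transwell groups (TPM, n = 2). Igfbp7 held 97.7% in sorted DC and 61.6% in SCA1+Msc cultured alone, where Igfbp4 held 21.9% and Igfbp2 6.63%.

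The same 26 genes of the pathway were counted in culture. EM organoids had 7 higher and 8 lower than DC, beside 27.1% and 17.2% of all genes, and co-cultured organoids 3 higher and 8 lower, beside 23.2% and 19.1%. From EM to co-cultured organoids 2 were higher and 3 lower, beside 5.73% and 7.21%, with Igfals, the gene of the acid-labile subunit that stabilises IGF complexes in serum, at 2.46 (SE 0.66, adjusted p = 0.0383) ahead of Grb14 (-1.36) and Plagl1 (-1.31). Grb10, an adaptor that dampens insulin and IGF1 receptor signalling, split the cell kinds, at 59.8 ± 8.14 TPM in DC, 2.15 ± 0.226 TPM in EM and 5.04 ± 0.278 TPM in co-cultured organoids, but at 31.0 ± 3.51 TPM in SCA1+Msc at day 0, 119 ± 20.4 TPM alone and 89.6 ± 6.89 TPM in co-culture (SD, n = 2). Its interaction term was 4.83 (SE 0.27, adjusted p = 5.4e-06), and over all 26 genes 7 such terms were positive and 7 negative, beside 14.5% and 13.8% of all genes.

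In SCA1+Msc 6 of the 26 were higher and 9 lower after culture, beside 27.4% and 17.5% of all genes alone and 26.0% and 17.3% in co-culture. The largest changes were those of Igfbp1 (-6.06 alone, SE 0.99, adjusted p = 8.8e-04, and -4.20 in co-culture, SE 0.99, adjusted p = 0.00710), Igfals (-4.04 in both, SE 0.66) and Plagl1 (-3.26 and -3.45, SE 0.25). Igfbp1, a binding protein of hepatocytes and the neighbour of Igfbp3 at 3.54 kb on chromosome 11, was at 36.4 and 117 TPM at day 0, and at 0 TPM in both libraries of SCA1+Msc alone, where hepatocyte genes summed to 38.0 to 54.0 TPM, so the value alone depends on the added 1. The part of hepatocyte RNA in the fall was not tested. Pappa was among the 6 that rose, from 13.3 ± 3.53 TPM to 46.1 ± 5.68 TPM alone and 34.5 ± 8.91 TPM in co-culture, while it was listed at 0 in both co-cultured organoid libraries. Between the mesenchymal cultures limma called 0 of the 26, with an unadjusted p under 0.05 for 1. Against co-cultured organoids 12 of the 26 were called in SCA1+Msc, beside 36.7% of all genes, and 10 of them were higher, beside 17.7%, led by Pappa (5.13, likewise against 0), Htra1 (4.75) and Grb10 (3.90), and at day 0 they had 9 higher and 4 lower than DC, beside 21.4% and 24.7%, led by Htra1 (6.56), Pappa (3.27) and Ghr (3.04).

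Genes most like a member were sought for the 3 members with the highest values, by Pearson's r of log2(value + 1) over the 12 libraries of an experiment, which share their cell kinds. Among 11970 genes in the sorted fractions Igfbp3 was followed most closely by Fbln5 (r = 0.987), Slc10a6 (0.977) and Procr (0.977), Igfbp4 by Gypc (0.993), Hic1 (0.990) and Fscn1 (0.989), and Igfbp7 by Rerg (0.973), Col4a1 (0.971) and Rgs7bp (0.969). Among 11264 genes in the transwell groups Igfbp3 was followed by Pcolce (0.993), Nid1 (0.990) and Tcf4 (0.989), Igfbp4 by Hexa, Fkbp9 and Ppic (each 0.986), and Igfbp7 by Chpf (0.992), Fkbp9 (0.991) and Ghr (0.991), the growth hormone receptor. Values of r over 0.95 were reached by 32, 88 and 44 genes in the sorted fractions and by 250, 85 and 93 in the transwell groups.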

How the data were processed

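RNA of sorted or cultured cells was amplified with Smart-seq2, sequenced single-end after Nextera XT preparation, and aligned and counted by the authors with STAR 2.5.0a and featureCounts 1.6.0 on GRCm38 with Ensembl annotation, without strand. For the transwell groups the authors deposited RPKM values, which were rescaled here to TPM (every library then has the same total). For the sorted fractions the authors deposited values named TPM, but library totals were reused down the table, so the columns sum to between 847270.0 and 1173511. They are another length-scaled value, 0.722 to 1.39 times TPM, and were used as deposited, with TPM after undoing this as an alternative. Whole reads recovered from the value of 1 read gave the depth, with 91.0% to 94.1% of low values whole within 0.02 of a read. A count of 0 allows up to 3 reads, for counting error only. The 4 columns of group means were not used.

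Tests were made on log2(value + 1) with limma 3.58.1 in R 4.3.3, with 1 mean per group, all libraries of an experiment in the fit, a trended variance, a filter that kept genes reaching 1 in 3 sorted or 2 transwell libraries, two-sided p and Benjamini-Hochberg adjustment. The code was tested on simulated data, in a comparison of each experiment with 200 genes changed by 2. These were 200 of 17028 sorted and of 18136 transwell genes, with no other difference between groups. The code recovered 30.0% of the 200 for PDGFRa+SCA1+ cells against DC and 81.5% for EM organoids against DC. Of the calls, 4.76% and 5.23% were wrong. Far fewer genes changed there than were called in the real comparisons, which makes the adjustment stricter. The recovered shares are therefore not those of the real comparisons. A gene not called in the sorted fractions may still differ. Mice A, E and F each gave every sorted fraction, so the labels pair those libraries, and deviations of the same mouse correlated by 0.004 to 0.097 between fractions. All 10 genes were named, and of the other pathway genes up to 3 per comparison with the largest change among those called. The 10 genes and all lists were chosen with earlier results of these data known. Alternatives were a pseudocount of 0.1, no filter, a minimum of 5, quantile normalization, no trend, only the groups compared, a replicate block, the other scale, and each library left out.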

Additional observations from a re-analysis of the deposited data

Results flagged for a closer look

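For 6 of the 10 genes the change over culture differed between co-cultured SCA1+Msc and co-cultured organoids by limma's interaction term, adjusted over all genes. The term was 7.73 for Igfbp2 and 2.63 for Igf1, whose change was higher in the mesenchyme, and -4.62 for Igfbp5, -2.23 for Igfbp3, -1.50 for Igfbp4 and -0.86 for Igfbp7. Igfbp2 changed by 4.77 in SCA1+Msc and -2.96 in organoids, and Igf1 by 0.33 and -2.31. The Igfbp2 values of these organoids rest on 2 and 0 reads, so its term depends on the added 1. Igfbp3 changed by 0.10 and 2.34, Igfbp4 by 2.28 and 3.78, and Igfbp7 by 0.32 and 1.18, so each of these 3 had the larger change in organoids, though not the higher level. Igfbp5 changed by -5.24 in SCA1+Msc and -0.62 in organoids, and with a pseudocount of 0.1 its term was -5.81 (adjusted p = 0.0730). The SCA1+Msc had been expanded before the DC were added, so cell kind and time in culture cannot be told apart in these terms. Groups of 2 or 3 libraries were not tested for outlying libraries.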

How the results depend on the processing

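Over 75 called results of the 10 genes no alternative turned a direction. Alternatives other than leaving out a library kept the call 549 times and lost it 51 times, and leaving out a library kept it 825 times and lost it 75 times. The cause was not tested. Every library of an experiment was left out in turn, including those outside the groups compared. Leaving out such a library cannot change a difference between 2 other groups or its direction, only the shared spread and the adjustment. The counts for left out libraries therefore overstate how firm the calls are. The count of genes called between the PDGFRa+ fractions, 2, became 1 with a pseudocount of 0.1 and 0 with no filter, with quantile normalization, without the trend, with only the groups compared or with the mouse as a replicate block, and 0 to 2 with a library left out. For PDGFRa-SCA1+ against PDGFRa+SCA1+ cells the 5 became 3 with no filter, 2 with only the groups compared and 2 to 5 with a library left out, and against PDGFRa+SCA1- cells the 4 became 1 with only the groups compared. Between the organoids the 2 became 1 with a pseudocount of 0.1, no filter, no trend or the replicate number as a block, 0 with only the groups compared and 0 to 2 with a library left out. For SCA1+Msc alone against day 0 the 5 became 3 with no filter and 3 to 6 with a library left out, and for co-cultured SCA1+Msc 3 with only the groups compared and 3 to 5 with a library left out. The mouse block lost 3 calls in all and changed no other.

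The labels do not say whether transwell replicate numbers pair libraries. Deviations of libraries with the same number correlated by -0.019 to 0.030. This cannot decide it, because sorted libraries known to share a mouse correlated by only 0.004 to 0.097. A block on the transwell replicate number lost 1 call. A fit without 1 of 2 libraries assumes that the lone one varies like the other groups. Values at or under 3 reads, as for Igfbp2 in organoids, cannot be ranked at this depth.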
